A study of Mus musculus with 24 samples.

Results

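The clustered protocadherins are 58 of the 24016 genes in the table of this study. They were taken by name, as every row called Pcdha, Pcdhac, Pcdhb, Pcdhga, Pcdhgb or Pcdhgc with a number. There are 14 alpha, 22 beta and 22 gamma members, and all lie on the plus strand of mouse chromosome 18 (build mm9). The alpha cluster spans chr18:37089939-37347314, the beta cluster chr18:37424652-37681073 and the gamma cluster chr18:37821599-38001526. 3 rows that fuse an alpha start to the gamma end (Pcdha4-g, Pcdha6-g and Pcdha7-g) were not counted as members.

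The samples are female mouse embryonic stem cells of the line 16.7 Tsix +/TST, either WT or G9a KO. G9a, the product of Ehmt2, is a histone methyltransferase that makes the H3K9me2 mark. The KO was derived from the WT line, so both carry the Tsix TST allele, and the labels do not say whether the KO is 1 clone. Cells were taken at day 0, undifferentiated, or at day 10, after LIF was withdrawn for 4 days in suspension and 6 days on gelatin. Each of the 4 groups has 3 libraries of rRNA-depleted total RNA and 1 H3K9ac ChIP sample. The labels number the samples as donors but do not say whether cultures were grown apart, so the p-values here measure the spread between these samples, which may be technical.

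Clustered protocadherins are cell adhesion proteins that neurons use to tell their own branches from those of other cells. In the alpha and gamma clusters each variable exon has its own promoter and is spliced to constant exons at the 3′ end of the cluster, which encode a shared cytoplasmic tail. Beta members are single-exon genes without such constant exons. A neuron picks a few of the alternate members by promoter choice, which depends on DNA methylation, CTCF and cohesin, while the C-type members (Pcdhac1, Pcdhac2, Pcdhgc3, Pcdhgc4 and Pcdhgc5) are used more broadly. SETDB1, SMCHD1 and DNMT3B are among the chromatin proteins known to act on these clusters.

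That layout decides what the table can show. The gene bodies of the 14 alpha members end within 3 bases of each other and those of the 22 gamma members within 9 bases, so each row holds all reads of the rows that start further downstream. The rows of 1 cluster are therefore not separate measurements, and Pcdha1 and Pcdhga1 stand for the whole alpha and gamma clusters. Subtracting each row from the one before gave the reads of each stretch between consecutive starts, and no difference was negative. The last alpha stretch, from the start of Pcdhac2, and the last gamma stretch, from the start of Pcdhgc5, hold the constant exons. Reads of the opposite strand were not counted: in WT day 0 replicate 3, Taf7, which lies on the minus strand between beta and gamma, had 5602 reads, while the fused row that spans it had 433 reads outside the members.

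The deleted gene, Ehmt2, had 986.8, 1102.3 and 1375.1 scaled reads in the WT libraries and 557.3, 440.9 and 375.4 in the KO libraries of day 0, without overlap, a change of -1.34 ± 0.31 (limma, unadjusted p = 0.00066, adjusted p = 0.993). At day 10 the WT libraries had 1296.9, 1358.9 and 718.6 and the KO libraries 499.8, 758.4 and 628.3, which overlapped; which part of the gene was deleted is not given in the labels. Library depth ran from 2081129 to 30527844 reads. WT day 0 replicate 3 and KO day 0 replicates 2 and 3 were the 3 deep libraries, all others had at most 4220140 reads, and no day 10 library was deep. The rRNA precursor Rn45s made up 0.115% to 0.129% of each deep library and 14.8% to 25.1% of each of the 9 shallow ones. The 1459 olfactory and vomeronasal receptor genes, which stem cells are not known to use, summed to 1072.1 CPM (share of the library's reads other than Rn45s) in KO day 0 replicate 1 and 1093.1 in WT day 10 replicate 3, against 31.1 to 376.6 in the other 10. The 16 fibroblast markers summed to 1526.3 CPM in WT day 0 replicate 1 and 672.4 in KO day 0 replicate 1, against 183.2 to 239.1 in the other 4 libraries of day 0. Stem cell markers (10 genes) ran from 3076.4 to 4791.6 CPM at day 0 and from 407.8 to 1959.8 at day 10.

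The gamma cluster was transcribed in all 12 libraries, the alpha cluster at a low level and the beta cluster hardly at all. In reads scaled to a common library total, the WT libraries of day 0 held 1269.7, 993.7 and 1376.8 over gamma, and the KO libraries 1295.2, 1406.1 and 1303.3. At day 10 the WT libraries held 802.9, 1116.0 and 1359.5, and the KO libraries 1011.5, 1495.0 and 1645.0. The groups overlapped in every comparison of the gamma cluster.

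Over alpha there were 166.2, 125.3 and 128.9 scaled reads for WT at day 0, and 420.3, 189.2 and 187.9 for KO. By day 10 the WT libraries held 37.1, 49.4 and 482.9, and the KO libraries 19.8, 43.8 and 59.3. The highest alpha values, in KO day 0 replicate 1 and WT day 10 replicate 3, came from the 2 libraries with the most reads over olfactory and vomeronasal genes. The part of those reads in the alpha values was not tested. Per kb, the alpha cluster of those 2 libraries was at 1.21 and 1.25 times the density of the olfactory and vomeronasal genes of the same library, and WT day 0 replicates 1 and 2 (1.29 and 1.47), WT day 10 replicate 1 (1.42) and KO day 10 replicate 1 (0.967) were as near to it. The other 6 libraries, the 3 deep ones among them, were at 3.15 to 4.99 times that density.

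**Figure D1:**
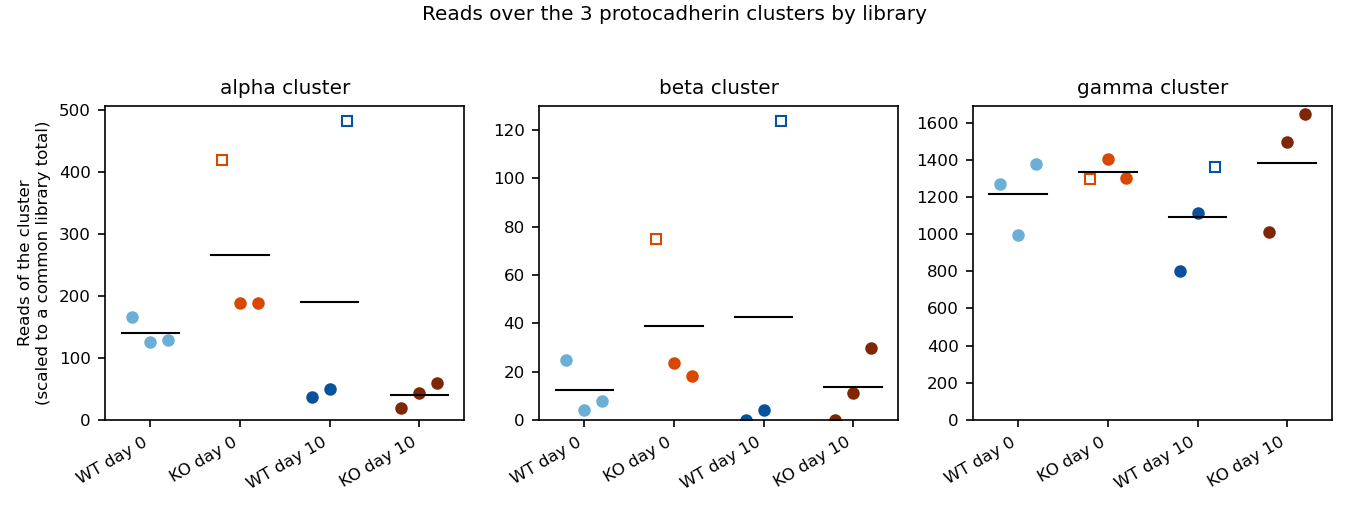
Reads over the alpha, beta and gamma clusters in each of the 12 RNA libraries, scaled to a common library total, by group. Points are libraries, lines are group means, and open squares mark KO day 0 replicate 1 and WT day 10 replicate 3, which stand above the other libraries for alpha (420.3 and 482.9) and beta but not for gamma.

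With differentiation, the alpha cluster was lower in KO cells. From day 0 to day 10 in KO, 13 of the 14 alpha members fell at an adjusted p under 0.05 (limma on log2(value + 1), a scale that understates changes of low genes, Benjamini-Hochberg over 20624 genes), and 6.46% of all genes were called lower and 2.43% higher. Their values did not overlap between the days for any of the 14, and 36.5% of all genes were lower without overlap in the same comparison. The median change of the alpha members was -2.61 on the log2 scale, against -0.68 over all genes. Pcdha1, which stands for the whole cluster, changed by -2.69 ± 0.77 (SE; adjusted p = 0.0448), and Pcdha12, Pcdha11 and Pcdha8, which had the lowest p, by -2.55 ± 0.70, -2.63 ± 0.72 and -2.58 ± 0.72 (adjusted p = 0.0404, 0.0404 and 0.0415). Pcdhac2, the C-type member whose row is only the 3′ end, had -1.90 ± 0.70 and did not pass (adjusted p = 0.0892).

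The call is close to the threshold, and the 13 rows share their reads. edgeR on the recovered reads called 0 alpha members and put 14 under an unadjusted p of 0.05 (lowest adjusted p 0.0709). Over all genes edgeR called 3.74% higher and 3.41% lower, and both tools put 32.4% under that p. DESeq2, which gave a p for 8 of the 14, called 7 lower, beside 8.38% of all genes lower and 6.12% higher (27.2% under an unadjusted p of 0.05). Scaling by RLE called 0. All day 10 libraries were shallow and 2 of the 3 KO libraries of day 0 deep. In a fit with depth as a term the alpha median was -2.87, against -0.47 over all genes. Adjusted p of the alpha members ran from 0.0429 to 0.258 there (limma). The share of all genes called in that fit is not given here, so its calls are not counted. Leaving out any 1 of the 6 KO libraries ended all 13 calls, as did leaving out WT day 0 replicate 2, and without WT day 0 replicate 1 there were 3. Without both KO day 0 replicate 1 and WT day 10 replicate 3, all 14 were called, with a median of -2.26, where 22.2% of all genes were called lower. In that setting KO day 0 is left with 2 deep libraries and KO day 10 with 3 shallow ones, so day and depth cannot be told apart in KO. Between these days the neural markers Stmn2, Ncam1, Snap25 and Syt1 fell in KO. The sum of the neural list went from 761.2 to 1120.3 CPM at day 0 to 318.9 to 346.2 at day 10. Neurog1, Neurog2 and Olig2 were at 0 in all 3 KO libraries of day 10. The 1120.3 was KO day 0 replicate 1, which also had Syt1 at 974.51 scaled reads. The other KO libraries of day 0 had sums of 761.2 and 787.7 CPM, and Syt1 at 150.45 and 158.64. The fibroblast list had a median of 1.19 in the same comparison, with 10 of 16 above 0, Pdgfrb called higher and Dcn lower. The part of these lists in the alpha values was not tested. In bulk samples, fewer cells of a type and less RNA per cell cannot be told apart.

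In WT cells limma, edgeR and DESeq2 called 0 alpha members between the days, and 0 had an unadjusted p under 0.05. Over all genes, limma called 2.4% lower and 2.02% higher (16.8% under an unadjusted p of 0.05), edgeR 3.64% and 3.4% (22.1%), and DESeq2 3.55% and 4.6% (16.4%). The median change of the 14 was -0.56, against -0.20 over all genes, and Pcdha1 had -0.52 ± 0.77 (adjusted p = 0.81). The direction turned with the tool: with edgeR 12 of the 14 were above 0 and with DESeq2 13. The spread came from 1 library. WT day 10 held 37.1 and 49.4 in replicates 1 and 2 and 482.9 in replicate 3. Without WT day 10 replicate 3 and KO day 0 replicate 1, 11 of 14 alpha members were called lower, with a median of -1.65, where 7.47% of all genes were. Of the neural markers, 3 of 18 fell in WT (Stmn2, Tubb3 and Elavl3). The sum of the list went from 570.7 to 870.0 CPM at day 0 to 236.3 to 591.4 at day 10. The 591.4 was WT day 10 replicate 3, against 236.3 and 273.3 in the other WT libraries of day 10.

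All 14 alpha members were above 0 in KO against WT at day 0, and none passed. Their median was 0.84, against 0.17 over all genes. For 13 of them, all but Pcdhac2, the lowest KO library was above the highest WT library, and 5.5% of all genes were higher without overlap. Over the cluster the mean was 140.1 ± 22.7 (SD, n = 3) in WT and 265.8 ± 133.8 (SD, n = 3) in KO. Without KO day 0 replicate 1 the KO mean was 188.6, from libraries at 189.2 and 187.9. Among the deep libraries alone, WT had 128.9 and KO had 189.2 and 187.9. limma and edgeR called 0 of the 14 and DESeq2 0 of the 8 it gave a p, with 0 under an unadjusted p of 0.05 (limma, Pcdha1 0.82 ± 0.77, adjusted p = 0.993). Over all genes limma and edgeR called 0.0% in either direction and DESeq2 0.0354% in each, and 3.82%, 4.04% and 4.05% were under that unadjusted p.

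At day 10 the same comparison gave medians below 0. Of the 14 alpha members 13 were below 0 in KO against WT, with a median of -1.21 against -0.26 over all genes, and limma called 0 of them with 0 under an unadjusted p of 0.05. Pcdha1, Pcdha2 and Pcdha3 had the lowest p among the members, with changes of -1.35 ± 0.77, -1.34 ± 0.76 and -1.32 ± 0.75 and adjusted p of 0.487, 0.488 and 0.489. edgeR called 0 and put 8 under an unadjusted p of 0.05, and DESeq2 called 0 and put 6 of 8 there. Over all genes limma and edgeR called 0.0%, and DESeq2 1.9% lower and 0.527% higher. Under the unadjusted p there were 11.9% (limma), 14% (edgeR) and 14.7% (DESeq2) of all genes. Stem cell markers were at 407.8 to 878.1 CPM in WT and 1405.9 to 1959.8 CPM in KO at day 10, without overlap. The alpha values of the lines did overlap at day 10. None of the 10 markers was called, with all 10 above 0 and 9 under an unadjusted p of 0.05 (limma). Their part in the alpha values was not tested. The alpha median rests on WT day 10 replicate 3. Without it and KO day 0 replicate 1 the median was -0.16. WT was then at 43.2 ± 8.7 (SD, n = 2) and KO at 41.0 ± 19.9 (SD, n = 3).

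**Figure D2:**
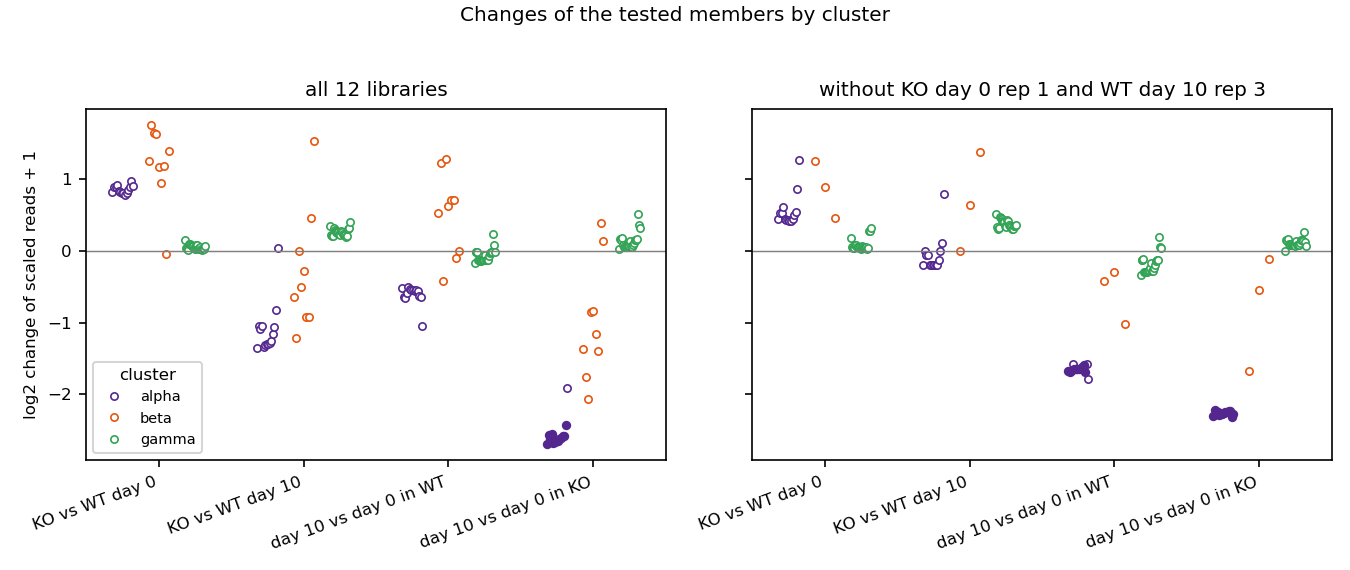
log2 changes of the members that passed the filter on low values, by cluster, in 4 comparisons, with all 12 libraries (left) and without KO day 0 replicate 1 and WT day 10 replicate 3 (right). Each point is a member, and filled points passed an adjusted p of 0.05 with limma; the alpha members fell from day 0 to day 10 in KO in both panels (medians -2.61 and -2.26) and in WT only on the right (11 of 14 called), while gamma members lie near 0.

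Libraries also differed in where their alpha reads lay. The Pcdhac2 stretch, with the constant exons, is 17.0% of the cluster's length. It held 80.8%, 78.7% and 77.0% of the alpha reads in the 3 deep libraries (WT day 0 replicate 3 and KO day 0 replicates 2 and 3), with Wilson 95% intervals between 72.9% and 84.2%. It held 80.0%, 81.2% and 77.3% in the 3 KO libraries of day 10, on only 5, 16 and 22 alpha reads. In KO day 0 replicate 1 and WT day 10 replicate 3 the share was 16.3% and 17.3%, close to the 17.0% of an even spread over the length.

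The remaining libraries stood between those values. WT day 0 replicates 1 and 2 had 23.4% and 43.3% of alpha reads in the Pcdhac2 stretch, and WT day 10 replicates 1 and 2 had 33.3% and 45.8%. Within WT at day 0 the share thus ran from 23.4% to 80.8%. Intervals and limits on shares cover counting error only.

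At day 0 the Pcdhac2 stretch held 38.9, 54.3 and 104.2 scaled reads in the WT libraries and 68.5, 148.8 and 144.6 in the KO libraries, which overlapped. By day 10 the WT libraries held 12.4, 22.6 and 83.4 and the KO libraries 15.9, 35.6 and 45.8. The Pcdhac1 stretch held 67.2, 4.2 and 12.0 (WT) and 137.0, 15.0 and 17.7 (KO) at day 0, and 12.4, 12.4 and 126.5 (WT) and 0, 0 and 10.8 (KO) at day 10. Per kb the Pcdhac2 stretch was the highest of alpha, at a mean of 1.48 scaled reads per kb over the 12 libraries, ahead of Pcdha11 at 0.911 and Pcdhac1 at 0.643. Without KO day 0 replicate 1 and WT day 10 replicate 3 these means were 1.43, 0.354 and 0.282. Fitted as stretches, no alpha stretch passed from day 0 to day 10 in KO (4 of 11 tested under an unadjusted p of 0.05, and 6.36% of all genes called lower). Pcdhac1 had -3.92 ± 1.33 (adjusted p = 0.0738) and Pcdhac2 -1.90 ± 0.70 (adjusted p = 0.0892). Without KO day 0 replicate 1 and WT day 10 replicate 3, the Pcdhac2 stretch fell in KO by 2.27 on the log2 scale (SE 0.59, adjusted p = 0.0156, with 22.1% of all genes called lower) and had -1.79 ± 0.59 in WT (adjusted p = 0.0679).

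Pcdha11 is an alternate alpha member. At day 0 its stretch held 17.7, 8.4 and 1.7 scaled reads in the WT libraries and 43.6, 2.6 and 2.9 in the KO libraries, and at day 10 only WT replicate 3 had any, 25.9. Without the same 2 libraries limma called it lower in WT at day 10 (adjusted p = 0.0473, with 7.4% of all genes called lower), on 5, 2 and 6 reads at day 0 against 0 and 0. The stretch passed the filter only through day 0, and a count of 0 in those 2 shallow libraries allows up to 1.33 and 0.836 CPM, so this call carries no weight. Of the 12 stretches from Pcdha1 to Pcdha12, 10 had no read in any KO library of day 10. With 3 reads as the limit of a count of 0, that allows up to 1.14 to 1.83 CPM per library.

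**Figure D3:**
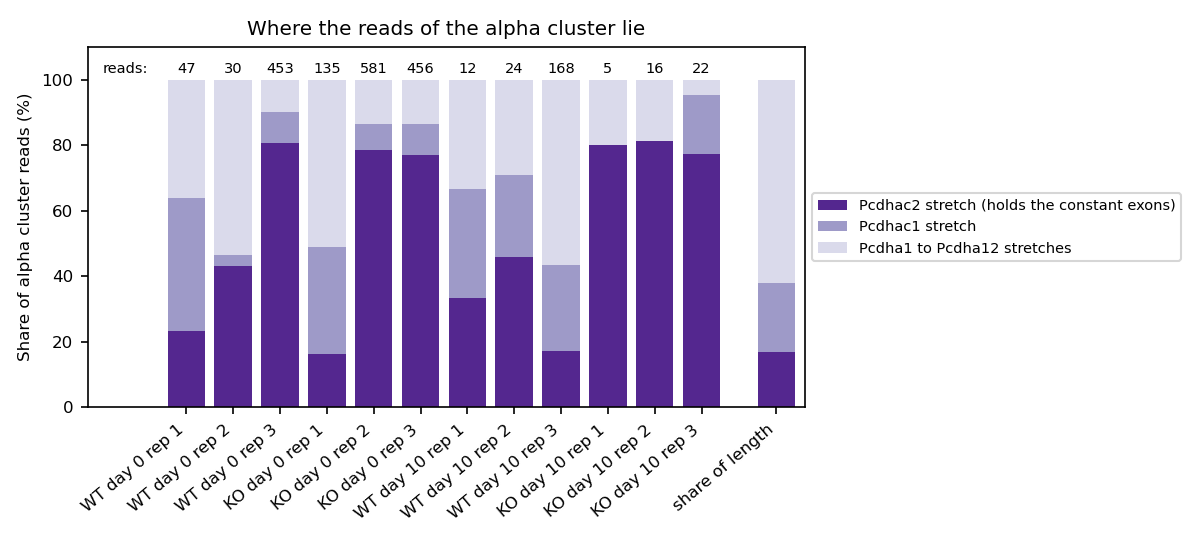
Share of each library's alpha reads in the Pcdhac2 stretch, the Pcdhac1 stretch and the stretches of Pcdha1 to Pcdha12, with the share of the cluster's length in the last bar and the number of alpha reads above each bar. The 3 deep day 0 libraries and the 3 KO day 10 libraries have 77.0% to 81.2% in the Pcdhac2 stretch, and KO day 0 replicate 1 and WT day 10 replicate 3 match the length.

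The beta cluster was close to silent. Over its 22 genes together the WT libraries of day 0 had 7, 1 and 27 reads and the KO libraries 24, 72 and 44. At day 10 the WT libraries had 0, 2 and 43 and the KO libraries 0, 4 and 11. The 2 libraries with no read (replicate 1 of WT and of KO at day 10) allow up to 1.33 and 1.83 CPM. Per kb, the day 0 libraries were at 0.17 to 1.71 times the density of the olfactory and vomeronasal genes, and the highest ratios, 3.53 and 8.64, were in KO day 10 replicates 2 and 3, on 4 and 11 reads.

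Per kb the highest beta members were Pcdhb22, Pcdhb20 and Pcdhb2, and each owed most of its mean to 1 library. Pcdhb22 had 6 reads in KO day 10 replicate 3, 10 in KO day 0 replicate 2 and 0 to 3 in the other 10 libraries. Pcdhb20 had 8 of its 13 reads in WT day 10 replicate 3, and Pcdhb2 had 7 of its 16 there and 7 in KO day 0 replicate 2. No beta member had reads in more than 6 of 12 libraries. 13 of the 22 did not pass the filter on low values and were not tested.

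Of the 9 beta members tested at day 0, 8 were above 0 in KO against WT, with a median of 1.25, and none passed. For 6 of them (Pcdhb11, Pcdhb13, Pcdhb14, Pcdhb16, Pcdhb17 and Pcdhb21) the KO and WT libraries did not overlap, where 5.5% of all genes were higher without overlap. A member with few reads had to be high in some group to be tested. These counts therefore cover the members that passed the filter and not the cluster. All 6 had 0 reads in WT day 0 replicates 1 and 2, which allows up to 1.49 and 1.78 CPM. The whole beta cluster had only 2.7 and 2.09 CPM in the deep KO day 0 replicates 2 and 3. The lack of overlap therefore does not separate the lines for these members. The reads below are not scaled for depth. For Pcdhb14 the WT libraries of day 0 had 0, 0 and 5 reads and the KO libraries 2, 6 and 6, and no library of day 10 had any. Its change at day 0 was 1.64 ± 0.74 on the log2(value + 1) scale, with an unadjusted p of 0.0418 and an adjusted p of 0.993, and it was the 1 member under 0.05 unadjusted. Pcdhb13 had 0 reads in all WT libraries of day 0 and 3, 5 and 1 in KO, and Pcdhb11 had 0, 0 and 1 against 1, 4 and 2. Pcdhb16 had 0, 0 and 1 reads in the WT libraries of day 0 against 4, 3 and 1 in KO, and 6 in WT day 10 replicate 3.

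Without KO day 0 replicate 1 and WT day 10 replicate 3 only 3 beta members could be tested, and their median at day 0 was 0.89. In the other comparisons limma called 0 of the 9, at medians of -0.50 (KO against WT, day 10), 0.62 (WT, day 10 against day 0) and -1.16 (KO, day 10 against day 0). Of these 9, 1 was under an unadjusted p of 0.05, Pcdhb14 in KO between the days. edgeR tested none of the beta members, and DESeq2 gave them no adjusted p and put 0 under an unadjusted p of 0.05. In WT between the days Pcdhb13 had an adjusted p of 0.63 and Pcdhb16 had 1.28 ± 1.24 (adjusted p = 0.68), both from WT day 10 replicate 3. Summed over the cluster, WT at day 0 had 12.2 ± 11.0 (SD, n = 3) scaled reads and KO 38.7 ± 31.3, or 20.8 without KO replicate 1.

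The gamma cluster kept its level within the spread of the libraries in all comparisons. At day 0 its mean was 1213.4 ± 197.7 (SD, n = 3) scaled reads for WT and 1334.9 ± 61.8 for KO. At day 10 it was 1092.8 ± 279.0 for WT and 1383.8 ± 331.1 for KO. limma called 0 of the 22 members in each comparison, with 0 under an unadjusted p of 0.05. edgeR also called 0, with Pcdhgc3 in KO between the days as the 1 case under an unadjusted p of 0.05, beside 32.4% of all genes. DESeq2 called that member higher in that comparison and 0 others, where 6.12% of all genes were called higher. It put 6 of the 22 gamma members under an unadjusted p of 0.05 there, beside 27.2% of all genes. With depth as a term limma also called Pcdhgc3 higher in KO between the days, at 0.96 (adjusted p = 0.0307). The gamma median was 0.23 in that fit, against -0.47 over all genes, and the share of all genes called in it is not given here. Median changes were 0.04 (KO against WT, day 0), 0.26 (day 10), -0.10 (day 10 against day 0, WT) and 0.09 (the same in KO). The medians of all genes were 0.17, -0.26, -0.20 and -0.68. Scaling by RLE moved the median of all genes to -0.01 in WT and -0.41 in KO between the days, and with it the gamma median to 0.11 in WT and 0.39 in KO, so the sign in WT depends on the scaling.

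All 22 gamma members were above 0 in KO against WT at both days, which is 1 shared set of reads and not 22 results. At day 0 the sign depends on the setting, with 15 of 22 below 0 when depth is a term. At day 10 the highest gamma value was for Pcdhgc5, at 0.40 ± 0.35 (adjusted p = 0.657). Pcdhgc3 had 0.30 ± 0.32 (adjusted p = 0.716) and Pcdhgc4 0.32 ± 0.34 (adjusted p = 0.723). The lines overlapped, with WT day 10 replicate 3 at 1359.5 above KO day 10 replicate 1 at 1011.5.

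Within the gamma cluster reads were densest at the 3′ end. The Pcdhgc5 stretch, which holds the constant exons and is 12.4% of the length, had 26.5% to 54.2% of the gamma reads per library. Per kb it had a mean of 23.5 scaled reads over the 12 libraries, and the Pcdhgc3 stretch 20.6. The next were Pcdhga1 at 8.22 and Pcdhgc4 at 5.78, and the lowest was Pcdhga5 at 1.82. In scaled reads, the Pcdhgc5 stretch had 336.0, 438.4 and 701.0 (WT) and 348.7, 620.7 and 552.6 (KO) at day 0, and 435.4, 529.2 and 436.9 (WT) and 420.5, 772.1 and 709.2 (KO) at day 10, and all groups overlapped. Pcdhgc4 had 21.2, 25.1 and 4.3 (WT) and 6.2, 7.5 and 4.9 (KO) at day 0, and 12.4, 39.1 and 97.7 (WT) and 11.9, 41.1 and 40.5 (KO) at day 10. Its change in KO between the days was 1.98 ± 0.90 (adjusted p = 0.146).

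The share of the Pcdhgc3 stretch was higher at day 10 in both lines. At day 0 the WT libraries had 10.9%, 10.1% and 9.39% of their gamma reads there and the KO libraries 6.73%, 11.1% and 11.7%. By day 10 the WT libraries had 23.5%, 18.1% and 17.3% and the KO libraries 18.8%, 17.6% and 18.9%. All 6 day 10 libraries were above all 6 of day 0, the shallow day 0 libraries included. Of the 22 gamma stretches it was the only one with a higher share in all day 10 libraries, and Pcdhga8 was the only one with a lower share in all of them; both were picked after their values were seen. The Pcdhga8 share was 1.95% to 5.88% at day 0 and 0.211% to 1.92% at day 10.

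Fitted as levels, neither stretch passed; of all genes, 2.03% were called higher and 2.4% lower in WT in that fit, and 2.43% higher and 6.36% lower in KO. Pcdhgc3 had 137.9, 100.2 and 129.2 scaled reads in WT at day 0 and 188.4, 201.8 and 235.7 at day 10, a change of 0.77 ± 0.35 (limma, unadjusted p = 0.0422, adjusted p = 0.276). In KO it had 87.2, 155.7 and 152.5 at day 0 and 190.4, 262.9 and 310.1 at day 10, a change of 0.96 ± 0.35 (unadjusted p = 0.0143, adjusted p = 0.084). The days did not overlap in either line, but the share of all genes higher without overlap between the days is not given here. As a gene body Pcdhgc3 had 0.51 ± 0.32 in KO with limma (adjusted p = 0.271), and DESeq2 on the recovered reads called it higher, at 0.82 ± 0.26 (adjusted p = 0.0183). Pcdhga8 had 24.8, 58.5 and 57.5 scaled reads at day 0 and 15.4, 8.2 and 2.9 at day 10 in WT, a change of -2.42 ± 0.70 (adjusted p = 0.0735).

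The Pcdhga1 stretch, the first of the gamma cluster, was low in 2 of the 3 WT libraries of day 10. The WT libraries had 49.5, 29.2 and 88.2 scaled reads at day 0 and 9.3, 12.4 and 40.2 at day 10, and the KO libraries 46.7, 137.1 and 135.6 and then 39.7, 71.2 and 51.2. Its change in KO against WT at day 10 was 1.59 ± 0.66 (limma, unadjusted p = 0.0312, adjusted p = 0.375). In the fit on gene bodies 11.9% of all genes were under an unadjusted p of 0.05 in that comparison. WT day 10 replicate 3 at 40.2 overlapped KO replicate 1 at 39.7. Without KO day 0 replicate 1 and WT day 10 replicate 3 the change in KO against WT at day 10 was 2.19 ± 0.54 (adjusted p = 0.197, with 0.0% of all genes called). Between the days, without those 2 libraries, the Pcdhga1 stretch fell in WT by 2.14 (SE 0.54, adjusted p = 0.0245), where 7.4% of all genes were called lower. In KO it had -1.36 ± 0.54 (adjusted p = 0.0766), where 22.1% of all genes were called lower. Together, the 18 stretches from Pcdhga1 to Pcdhgb8 had 27.7% to 35.4% of the gamma reads of WT libraries and 37.1% to 38.2% of those of KO libraries at day 0. The Wilson 95% interval of WT day 0 replicate 1, at 35.4%, was 30.6% to 40.5% and covers all 3 KO values. That of KO day 0 replicate 1, at 38.0%, was 33.4% to 42.7%. For day 10 the ranges of the 18 stretches were 15.0% to 30.2% (WT) and 25.8% to 34.9% (KO), which overlap.

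**Figure D4:**
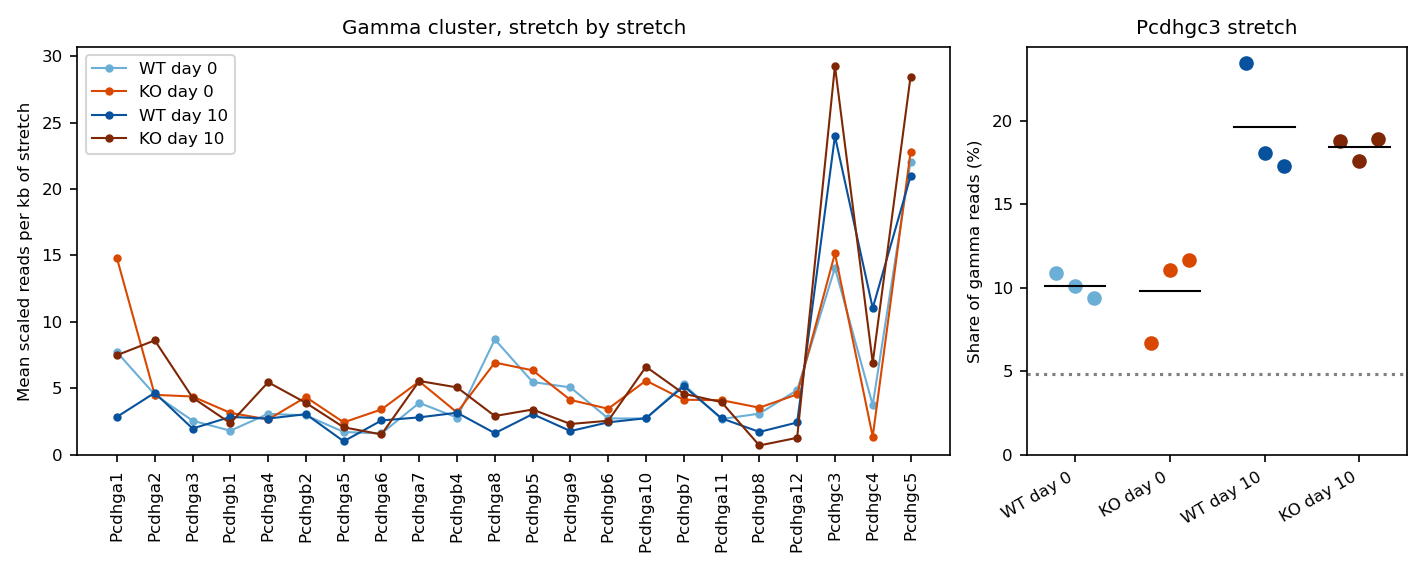
Left, mean scaled reads per kb of each gamma stretch in the order of the cluster, by group. Right, share of the gamma reads in the Pcdhgc3 stretch per library with group means as lines and the stretch's share of the length (4.84%) dotted; all day 10 libraries (17.3% to 23.5%) lie above all day 0 libraries (6.73% to 11.7%).

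No member passed the test of whether the change with differentiation differed between the lines. For the difference of the day 10 against day 0 changes, KO minus WT, limma called 0 of the 45 members tested and 0.0% of all genes, with 0 members and 8.7% of all genes under an unadjusted p of 0.05. The comparisons share libraries, so their values are not independent of each other. Medians were -2.03 for alpha, -1.86 for beta and 0.19 for gamma, against -0.36 for all genes. The lowest p among members were those of Pcdhb13, at -2.97 ± 1.47 (adjusted p = 0.581), Pcdha2, at -2.17 ± 1.08 (adjusted p = 0.584), and Pcdha3, at -2.13 ± 1.07 (adjusted p = 0.584). edgeR called 0 members and 0.0% of all genes and put 12 alpha members and 10.5% of all genes under an unadjusted p of 0.05. DESeq2 called 0 members, 0.354% of all genes lower and 0.0443% higher, and put 7 alpha members and 12.2% of all genes there. Without KO day 0 replicate 1 and WT day 10 replicate 3 the alpha median was -0.62.

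H3K9ac, a mark of active promoters and enhancers, was sparse over alpha and beta and denser over gamma in the authors' peak lists. With 1 sample per group there is no replicate check. The lists hold 63050 (WT day 0), 37704 (KO day 0), 37310 (WT day 10) and 51501 (KO day 10) peaks, so counts are not comparable between them as changes. In that order there were 2, 3, 0 and 4 peaks over the alpha cluster, 3, 2, 0 and 3 over beta, and 10, 9, 8 and 13 over gamma. Per 100 kb that is 0 to 1.55 for alpha, 0 to 1.17 for beta and 4.45 to 7.23 for gamma. Most were weak: at a −log10 q of 3 or more, 1 alpha peak of KO day 0 and 1 gamma peak of WT day 10 remained.

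The strongest peak over the clusters lay in the alpha cluster of KO at day 0, at chr18:37226147-37227116. It is within the gene bodies of Pcdha1 to Pcdha12, in the stretch between the start of Pcdha12 and that of Pcdhac1, 22674 bases before Pcdhac1. Its fold enrichment was 7.97 with a −log10 q of 9.03, higher than 99.5% of the peaks in its list. WT day 0 had a peak at the same place (chr18:37226159-37227089) with a fold enrichment of 3.27 and a −log10 q of 0.965, higher than 92.7% of its list. Neither line had a peak there at day 10. No alpha start had a peak within 1 kb in KO at day 0, 1 had one in WT at day 0 (Pcdha9), and 2 in KO at day 10 (Pcdha3 and Pcdha9).

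Pcdhgc3 was the only member with a peak within 1 kb of its start in all 4 samples, but all 4 were weak. In WT day 0, KO day 0, WT day 10 and KO day 10 the fold enrichments were 2.25, 2.36, 2.65 and 2.41. The −log10 q were 0.0, 0.102, 0.423 and 0.16 in that order. The peaks of day 0 were higher than only 3.54% (WT) and 8.54% (KO) of their lists. All 4 samples also had a peak in the Pcdhgc5 stretch: chr18:37984886-37986430 in WT day 0 (fold 2.55), chr18:37984472-37988845 in KO day 0 (3.17), chr18:37981462-37986777 in WT day 10 (4.35, −log10 q 3.21) and chr18:37984134-37987790 in KO day 10 (3.98). Among alternate gamma members, Pcdhga7 and Pcdhgb1 had peaks within 1 kb of their starts in KO at both days and none there in WT. Pcdhga7 had a peak over its start in KO at day 0 (fold 4.54, −log10 q 2.91) and 69 bases from it in KO at day 10 (3.53, −log10 q 1.74). For Pcdhgb1 they were weak, at 848 bases (fold 2.45, −log10 q 0.0432) and 63 bases (2.81, −log10 q 0.57) from the start. With 1 sample per group and lists of unlike size, a difference between the lines at these starts was not tested.

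Within 1 kb of a start, 4 of 22 gamma members had a peak in WT day 0, 8 in KO day 0, 2 in WT day 10 and 7 in KO day 10. For beta the counts were 2, 1, 0 and 1 of 22. Over all 24016 genes, 49.7%, 40%, 50.8% and 52.1% of starts had one. The share was below that of all genes for each cluster in each sample, the nearest being gamma in KO day 0 at 36.4%.

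**Figure D5:**
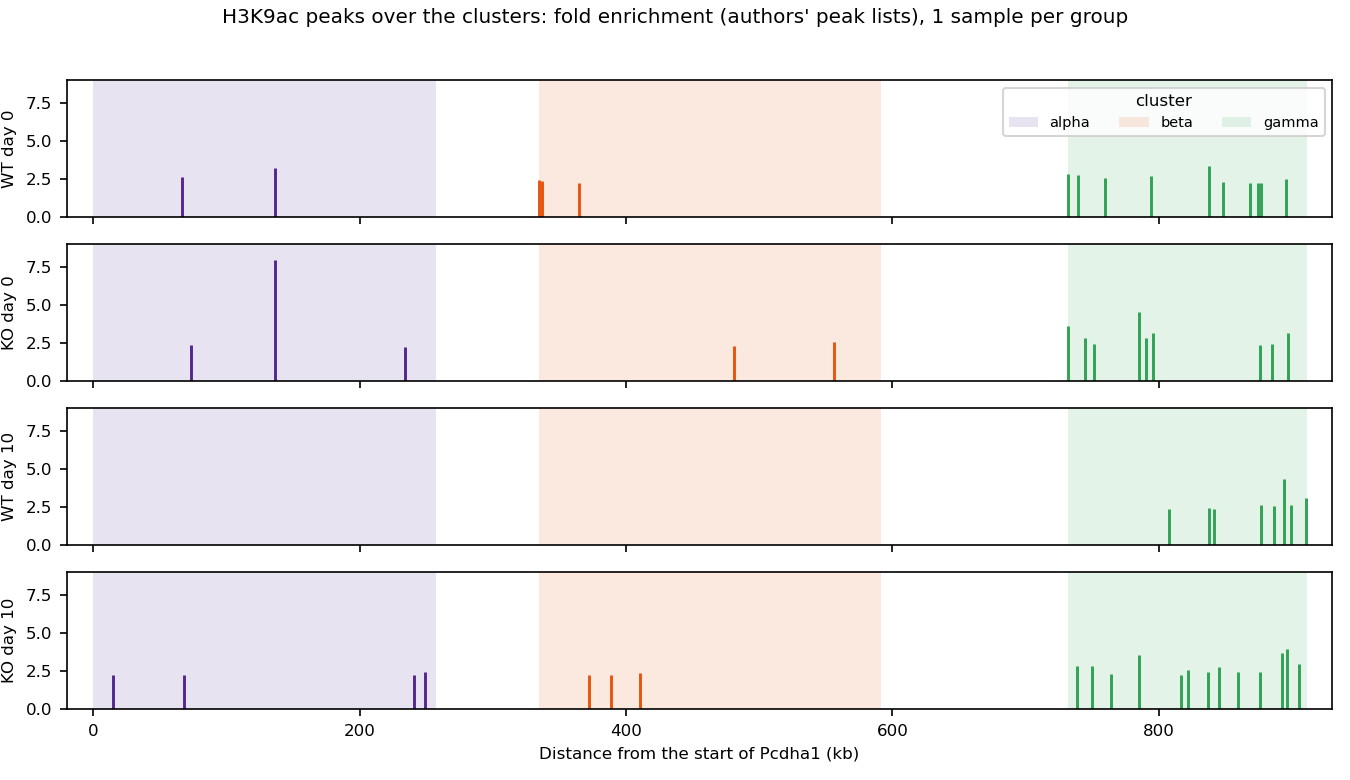
H3K9ac peaks over the 3 clusters in the 4 samples, plotted by distance from the start of Pcdha1 in kb, with the authors' fold enrichment as height and the clusters shaded. The tall peak of KO day 0 in the alpha cluster (7.97) stands at the place of a lower one in WT day 0 (3.27), and WT day 10 has peaks over gamma only.

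Reads that could be assigned to an allele, mus or cas in the authors' table, came mostly from mus. Over the alpha cluster there were 704 mus and 9 cas reads, over gamma 4192 and 25, and over beta 118 and 8. The mus share was at or above 95% in 12 of 12 libraries for alpha and for gamma. The other genes of chromosome 18 had 96.3% to 97.9% mus reads per library, against 51.1% to 53.5% on chromosome 13, so the allele table does not tell the 2 copies of these clusters apart.

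Of the non-clustered protocadherins, single genes outside these clusters, 12 of 14 were in the table. In WT, Pcdh18 rose between the days by 3.46 ± 0.72 (adjusted p = 0.013) and Pcdh1 by 1.96 ± 0.39 (adjusted p = 0.00999). In KO, Pcdh18 rose by 4.77 ± 0.72 (adjusted p = 0.00276) and Pcdh1 by 1.74 ± 0.39 (adjusted p = 0.0211), while Pcdh15 fell by 4.96 (SE 1.22, adjusted p = 0.0297). Pcdh15 is a long gene that was highest in the same 2 libraries as alpha, at 1310.8 scaled reads in KO day 0 replicate 1 and 1580.9 in WT day 10 replicate 3, against 2.7 to 360.8 elsewhere. Of 18 neighbours of the clusters in the table, Arap3, a GTPase-activating protein, and Pcdh1, already counted above, rose in both lines, and none fell. Of all genes, 2.02% in WT and 2.43% in KO were called higher.

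Of 29 genes known to act on the clusters or on H3K9 methylation, limma called 0 in KO against WT at either day (1 under an unadjusted p of 0.05 at day 0 and 3 at day 10, where 3.82% and 11.9% of all genes were). Between the days in KO, limma called 1 of the 29 higher and 1 lower, beside 2.43% and 6.46% of all genes. It put 4 of the 29 under an unadjusted p of 0.05, beside 32.4% of all genes. Wiz, a partner of G9a, rose by 1.00 ± 0.25 (adjusted p = 0.0314), and Lrif1, a partner of SMCHD1, fell by 1.55 (SE 0.45, adjusted p = 0.0479). Dnmt3b, a DNA methyltransferase of the alternate promoters, had 1.03 ± 0.32 there (adjusted p = 0.0559). In the same comparison Ctcf had -0.45 ± 0.34 (adjusted p = 0.349), Setdb1 -0.52 ± 0.35 (adjusted p = 0.292) and Smchd1 -0.18 ± 0.33 (adjusted p = 0.705). Of 15 genes for proteins that bind or modify the cytoplasmic tails, limma called 0 in KO against WT at either day (0 under an unadjusted p of 0.05 at day 0 and 2 at day 10, beside the same shares of all genes).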

How the data were processed

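The submitters' processing notes name TopHat and HOMER for the RNA samples, Novoalign and MACS2 for the ChIP samples and the build mm9, without roles; versions, the MACS2 control and the treatment of multiply mapped reads are not given in the sources used here. The gene table deposited by the authors holds a signal per gene body, reads scaled to a common total near 8689193; their table of allelic reads, also deposited, holds counts. Fold enrichment and −log10 p and q values come with each peak, per the file headers. Since the values are scaled and not raw counts, limma 3.58.1 (trend, robust) was run on log2(value + 1) over genes above 1 in at least 3 libraries, all 12 together, with Benjamini-Hochberg adjustment at 0.05. Dividing by each library's step gave whole reads for 100% of values within 0.05 reads (largest distance 0.042), which served edgeR 4.0.16 and DESeq2 1.42.0 as alternatives. Scripts were tested on simulated data. CPM values were computed here and leave out Rn45s.

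The members and gene lists were chosen with earlier results of these data known. Members named in full are, per cluster, the 3 highest per kb, the C-types, and per comparison the 3 with the lowest p; of the gene lists, Ehmt2, Ctcf, Smchd1, Setdb1, Dnmt3b and up to 4 that passed. Stretches, and the settings without the first libraries of day 0, were added after seeing the data. No p is given for a score over members. The 4 H3K9me2 samples and the 4 inputs were not analysed here; 2 of the inputs carry conflicting days in their labels. Some results on single genes of the lists are not reported here.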

Additional observations from a re-analysis of the deposited data

Results flagged for a closer look

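The alpha cluster moved in opposite directions in KO against WT at the 2 days: all 3 KO libraries were above the WT mean at day 0 and all 3 below it at day 10. The log2 ratios of the group means were 0.92 and -2.21, a difference of 3.14. The beta cluster did the same, with 1.66 and -1.65, a difference of 3.31. The difference was not tested for the cluster levels; for Pcdha1, the row of the whole alpha cluster, the interaction in limma gave an adjusted p of 0.585. Both WT means at day 10 rest on replicate 3: without it and KO day 0 replicate 1, the day 10 ratios were -0.08 for alpha and 2.73 for beta, the latter on 2 WT reads.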

How the results depend on the processing

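The count of members called from day 0 to day 10 in KO, 13 with limma, was 0 with RLE scaling, 4 with TMM scaling, 1 with no filter (a beta member), 0 with a pseudocount of 5, 0 with edgeR, 8 with DESeq2 (7 alpha and Pcdhgc3), 0 with stretches, 0 without the first libraries of day 0 and 1 with stretches without KO day 0 replicate 1 and WT day 10 replicate 3; leaving out 1 library gave 0 to 15. The median of the alpha members stayed below 0 in all of these. In WT it was 11 without those 2 libraries and 2 with stretches without them, and leaving out 1 library gave 0 to 0. In the other 3 comparisons no setting called a member. Whether the replicate numbers pair the samples is not known. Correlations between same-numbered libraries ran from -0.578 to 0.579, but depth also differed within the day 0 groups, so they cannot decide it. The replicate block gave 14 called members in KO between the days and 0 in the other comparisons.

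For log2 ratios of the cluster levels, leaving out KO day 0 replicate 1 and WT day 10 replicate 3 gave, for alpha, -0.08 (KO against WT, day 10, from -2.21) and -1.70 (WT between the days, from 0.44), and for beta 2.73 (from -1.65) and -2.58 (from 1.80). TMM scaling gave 0.37 for gamma in KO between the days (from 0.05). Leaving out 1 library gave, in the order KO against WT at day 0, at day 10, WT and KO between the days, 0.43 to 1.12, -2.70 to -0.08, -1.70 to 0.93 and -3.06 to -2.20 for alpha, 0.76 to 2.70, -2.95 to 2.73, -2.58 to 2.84 and -2.82 to -0.61 for beta, and 0.01 to 0.24, 0.16 to 0.53, -0.34 to 0.03 and -0.09 to 0.23 for gamma. At a −log10 q of 3, H3K9ac peaks over the clusters were 0 but for 1 in alpha (KO day 0) and 1 in gamma (WT day 10). A window of 2 kb gave 1 alpha and 2 beta members with a peak in KO day 0 and 3 beta members in KO day 10. Leaving out 1 library moved the mean mus share to 98.79% to 99.12% (WT day 0), 98.31% to 99.36% (KO day 0), 97.59% to 98.94% (WT day 10) and 98.96% to 100% (KO day 10). The cause of these changes was not tested. 9 of 12 libraries are shallow, all of day 10 among them, which limits what few reads over alpha and beta can show.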
